A study of Mus musculus with 4 samples.

Results

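The Hox genes encode homeodomain transcription factors that lie in the Hoxa, Hoxb, Hoxc and Hoxd clusters, on mouse chromosomes 6, 11, 15 and 2. Members were all probe sets of the array that the platform annotation maps to exactly 1 gene of these clusters, chosen by gene symbol and not by any measured value. They were 48 probe sets of 33 genes, among 34945 probe sets with 1 symbol and 45101 in all. Cluster a held 16 probe sets of 9 genes, cluster b 11 of 9, cluster c 11 of 7 and cluster d 10 of 8. Of the 39 Hox genes in RefSeq, 6 had no member probe set.

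Expression was measured in distal colon on Affymetrix arrays, with 1 mouse and 1 array in each of 4 groups. The groups were Adamts12 KO mice given 2% dextran sodium sulfate (DSS), Adamts12 WT mice given 2% DSS, untreated Adamts12 KO mice and untreated Adamts12 WT mice. Adamts12 encodes a secreted metalloprotease, and DSS, given in drinking water, damages the lining of the colon and brings on colitis. The mice were 8 to 10 weeks old when treatment started. DSS was given for 7 days by the series text and for 8 days by the treatment protocol, with 1 day without it before sampling. The labels name no strain and no part of the gene that was removed in the KO. With 1 array per group, no difference between a pair of arrays has a replicate check, and the number of arrays limits the precision.

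Within a cluster, Hox genes are numbered by paralog group, and their order along the chromosome follows the order in which they are used along the body axis. Low-numbered paralogs act towards the head and high-numbered ones towards the tail, and in the adult gut the nested pattern persists in the epithelium and in the mesenchyme. Paralogs 1 to 4 are called anterior here, 5 to 8 central and 9 to 13 posterior. The products bind DNA with cofactors of the Pbx and Meis families, and Cdx proteins, Polycomb and Trithorax complexes set which part of each cluster is active.

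Values are the authors' deposited log2 values, with array medians of 3.42 to 3.46. Values at or under 1.39, the highest of 9 Y-linked probe sets on arrays with bright Xist, were read as background and raised to it before differences were taken. The brighter Adamts12 probe set read 1.41 with DSS and 1.42 without DSS in KO, against 2.18 in both WT arrays, a dim signal that checks the genotypes only weakly. The untreated KO array stood apart from the other 3. It lay at least 2-fold above all of them at 8 Hox probe sets (16.7%) and at least 2-fold below them at 5 (10.4%), where the shares over all probe sets with 1 symbol were 1.05% and 1.03%. The untreated WT array lay at least 2-fold above the rest at 5 Hox probe sets, against 0.893% of all, and below them at 0, against 0.143%. The WT DSS array lay below the rest at 1 Hox probe set (Hoxd10) and above them at 0, against 0.0773% and 0.14% of all. The KO DSS array lay apart at 0 Hox probe sets, against 0.987% above and 0.26% below among all.

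Of the 48 probe sets, 26 of 20 genes lay above the array median on at least 1 array, 11 of 9 genes on all 4 arrays, and 22 under it on all 4. The 13 genes with no probe set above an array median were Hoxa2, Hoxa4, Hoxb1, Hoxb7, Hoxc4, Hoxc5, Hoxc6, Hoxc8, Hoxc10, Hoxc13, Hoxd1, Hoxd3 and Hoxd12. Their probe sets and the dim ones of other genes lay between 0.85 and 3.02 on the KO DSS array, 0.74 and 2.91 on the WT DSS array, 0.89 and 3.45 in untreated KO, and 0.71 and 2.97 in untreated WT. Hoxb1 and Hoxd1, the most anterior members measured, were at background on all 4 arrays, as was Hoxc10. The single probe set of cluster c above a median was that of Hoxc9, so the bright Hox signal of these colons came from clusters a, b and d.

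**Figure D1:**
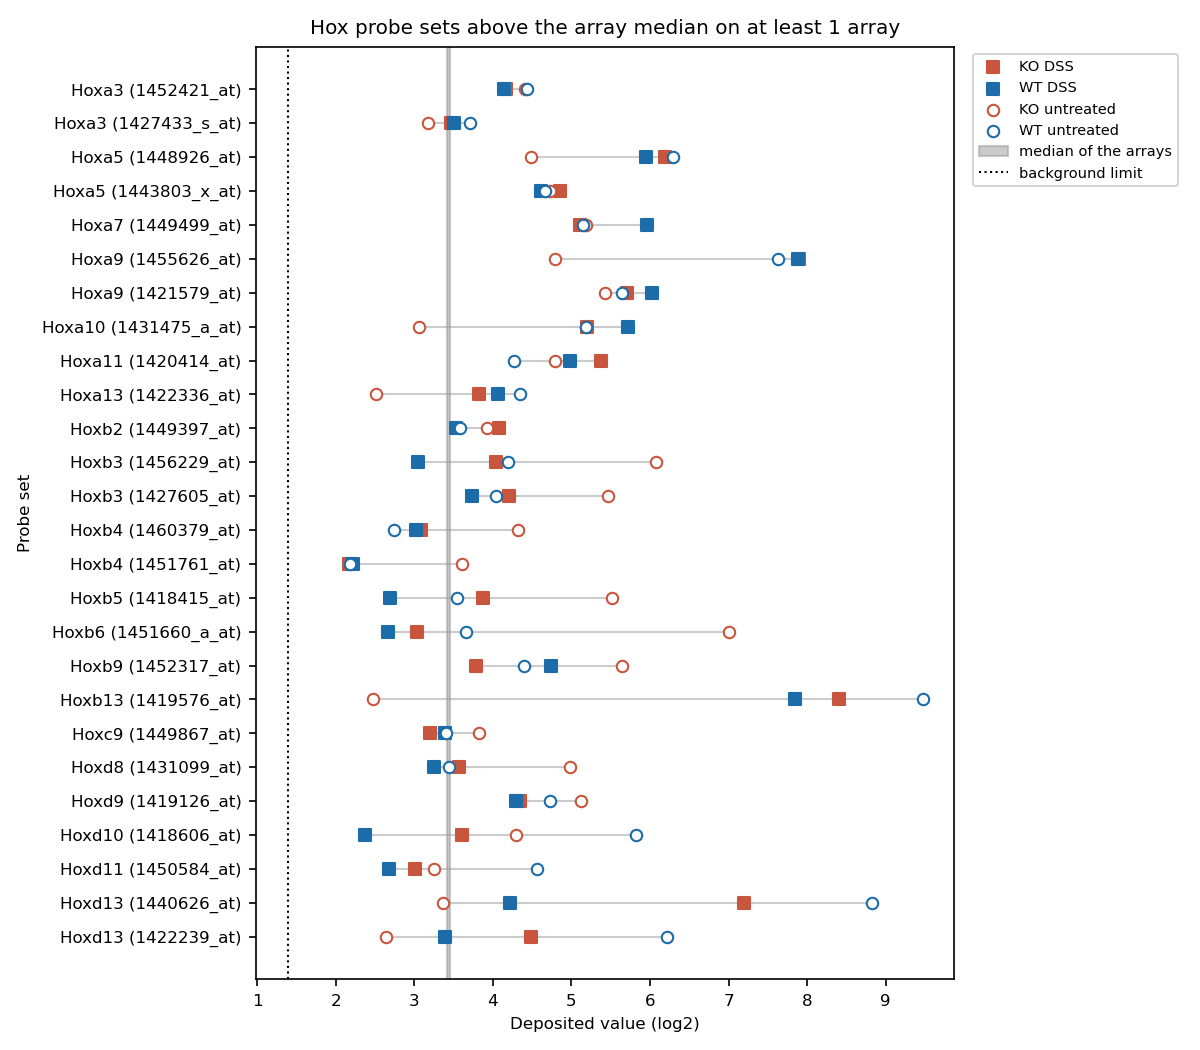
Deposited log2 values (x axis) of the 26 Hox probe sets above the array median on at least 1 array (y axis), 1 symbol per array; filled squares are DSS arrays, open circles untreated arrays, red KO and blue WT, the grey band spans the 4 array medians and the dotted line is the background limit of 1.39. The untreated KO array lies far left of the others for Hoxb13 (2.48) and Hoxa9 (4.79) and far right for Hoxb6 (7.01).

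The widest differences between the untreated arrays were in paralog group 13. Hoxb13, used as a marker of the distal colon and rectum and of the prostate, read 8.40 on the KO DSS array, 7.84 on the WT DSS array, 2.48 in untreated KO and 9.47 in untreated WT. The untreated KO colon was low and the other 3 were bright, with a KO minus WT difference of -6.99 without DSS. Hoxd13, needed for the digits and for the smooth muscle of the hindgut, read 7.20 on the KO DSS array, 4.22 on the WT DSS array, 3.36 in untreated KO and 8.82 in untreated WT (1440626_at). Its second probe set (1422239_at) read 4.49, 3.39, 2.64 and 6.21 on the same arrays, in the same order of arrays. For Hoxd13 both the untreated KO and the WT DSS array were low, and the KO minus WT differences without DSS were -5.46 and -3.57. Hoxa13, which acts with Hoxd13 in the digits and the hindgut, read 3.83 on the KO DSS array, 4.07 on the WT DSS array, 2.51 in untreated KO and 4.35 in untreated WT. Its KO minus WT difference without DSS was -1.84, and -0.89 when all values under the array median were raised to that median. Hoxc13, known for its part in hair and nail, stayed between 1.30 and 1.79 on all 4 arrays. In bulk tissue, fewer cells of a type and less RNA per cell cannot be told apart.

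The promoters of 2 posterior members that were low on the untreated KO array and of 2 members that were high on it are shown because these genes differed in opposite directions there. Sequences are the 250 bases before the gene start from RefSeq (GRCm38.p6), 5′ to 3′ on the gene's strand, and capitals mark the letters TTTAT or, on the other strand, ATAAA, the core of the motif bound by Cdx proteins. Hoxd13 lies at chr2:74667975-74668224 (+), Hoxa13 at chr6:52260881-52261130 (-), Hoxd8 at chr2:74704365-74704614 (+) and Hoxb4 at chr11:96318017-96318266 (+).
Hoxd13: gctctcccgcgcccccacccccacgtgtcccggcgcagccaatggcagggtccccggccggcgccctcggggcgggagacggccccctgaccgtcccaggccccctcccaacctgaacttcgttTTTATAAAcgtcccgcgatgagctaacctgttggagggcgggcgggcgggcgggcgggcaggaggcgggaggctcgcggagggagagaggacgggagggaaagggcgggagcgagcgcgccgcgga
Hoxa13: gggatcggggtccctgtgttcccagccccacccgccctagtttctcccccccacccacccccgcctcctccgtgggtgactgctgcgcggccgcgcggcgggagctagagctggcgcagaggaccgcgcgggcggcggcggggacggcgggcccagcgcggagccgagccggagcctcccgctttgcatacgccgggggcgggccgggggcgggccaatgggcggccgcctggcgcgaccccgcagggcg
Hoxd8: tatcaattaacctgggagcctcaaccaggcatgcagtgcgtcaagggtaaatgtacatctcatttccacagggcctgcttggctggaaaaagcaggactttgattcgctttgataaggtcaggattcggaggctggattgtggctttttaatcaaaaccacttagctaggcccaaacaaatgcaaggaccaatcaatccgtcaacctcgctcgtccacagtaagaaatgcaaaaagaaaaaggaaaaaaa
Hoxb4: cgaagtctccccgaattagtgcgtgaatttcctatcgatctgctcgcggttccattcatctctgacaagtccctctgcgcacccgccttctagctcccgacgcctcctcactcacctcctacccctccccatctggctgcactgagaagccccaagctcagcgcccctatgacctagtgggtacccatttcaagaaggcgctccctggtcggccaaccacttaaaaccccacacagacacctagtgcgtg
The Hoxd13 window held the letters 2 times, 1 on each strand and overlapping, and the other 3 windows held none. Over 21 promoters of the 19 member genes in the table, 33.3% held the letters, against 37.3% of all 32851 promoters. G and C made up 74.4% of the Hoxd13 window and 80% of the Hoxa13 window, against 44.4% for Hoxd8 and 58% for Hoxb4, where the median of all promoters was 52.4%. CG dinucleotides numbered 31, 35, 6 and 14 in the same order, against a median of 6 in all promoters and 13 in the member promoters. These are descriptions of the sequence only. Hoxb13, Hoxb5 and Hoxb6 were not in the table.

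Without DSS, 9 Hox probe sets (18.8%) were at least 2-fold higher in KO than in WT colon and 9 (18.8%) at least 2-fold lower, where 2.06% and 4.2% of all probe sets with 1 symbol were. The direction differed by paralog group and by cluster. Anterior probe sets were higher at 4 of 16 and lower at 0, central ones higher at 4 of 15 and lower at 1, and posterior ones higher at 1 of 17 and lower at 8. The 4 higher anterior ones were the probe sets of Hoxb3 and Hoxb4, so all came from cluster b. The higher posterior one was Hoxb9 (1.25) and the lower central one Hoxa5 (-1.80). The median difference was 0.23 for anterior, 0.22 for central and -0.21 for posterior members, with 0 over all probe sets. Over the 26 probe sets above an array median on at least 1 array, these medians were 1.42 for 7 anterior, 0.805 for 6 central and -1.52 for 13 posterior ones. Over the 11 above the median on all 4 arrays they were 0.35 for 3 anterior, 0.03 for 3 central and 0.39 for 5 posterior ones. The stricter filter left out every probe set of paralog group 13, since each fell under the median on an array. Among the 26 probe sets above an array median on at least 1 array, 8 were higher and 9 lower, against 3.09% and 6.52% of all probe sets that passed that filter. Both Hoxb4 probe sets and that of Hoxc9 passed it through the untreated KO array alone and that of Hoxd11 through the untreated WT array alone, so these had to differ in that direction.

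Cluster b divided between its posterior end and the rest. Hoxb6, active in lateral mesoderm, read 3.04 on the KO DSS array, 2.66 on the WT DSS array, 7.01 in untreated KO and 3.66 in untreated WT. Hoxb5, which acts in the neural crest cells that form the enteric nervous system, read 3.87, 2.69, 5.51 and 3.54 on the same arrays. Both were highest on the untreated KO array, by 3.35 and 1.97 over the untreated WT array. Hoxb3, a hindbrain and pharyngeal arch gene, read 4.04, 3.05, 6.08 and 4.19 at its first probe set (1456229_at) and 4.21, 3.73, 5.46 and 4.04 at its second (1427605_at), again in the order KO DSS, WT DSS, untreated KO and untreated WT. Hoxb4, known for expanding blood stem cells, read 3.09, 3.02, 4.32 and 2.74 (1460379_at) and 2.17, 2.22, 3.61 and 2.18 (1451761_at). In these genes the untreated KO array lay above the other 3, with KO minus WT differences of 1.89 and 1.42 for Hoxb3 and of 1.58 and 1.43 for Hoxb4. Hoxb9, a posterior member that acts in thoracic patterning, read 3.78, 4.74, 5.64 and 4.39 and was also higher in untreated KO, by 1.25. Hoxb2, a hindbrain gene, read 4.08, 3.53, 3.93 and 3.58, and Hoxb7 stayed between 1.68 and 1.88. In all, 7 of the 11 probe sets of cluster b were at least 2-fold higher in untreated KO colon and only that of Hoxb13 at least 2-fold lower.

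In cluster d the sign of the difference turned along the chromosome. Hoxd10, a gene of lumbar motor neurons, read 3.61 on the KO DSS array, 2.37 on the WT DSS array, 4.30 in untreated KO and 5.82 in untreated WT. Hoxd11, which acts in the forearm and kidney, read 3.01, 2.68, 3.25 and 4.56. In both the untreated WT array was the highest, and the KO minus WT differences without DSS were -1.52 and -1.31. Hoxd9, a further posterior member, read 4.35, 4.30, 5.12 and 4.73, within 2-fold. Hoxd8, the central member of the cluster, read 3.57, 3.25, 4.98 and 3.44 (1431099_at) and 2.13, 1.96, 3.18 and 2.13 (1433638_s_at), and the untreated KO array was the highest at both, by 1.54 and 1.05 over the untreated WT array. Hoxd3 read 1.62, 1.92, 2.51 and 1.80, and Hoxd12 stayed between 1.13 and 1.52.

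Cluster a was lower or within 2-fold in untreated KO colon at every probe set, with 4 of 16 at least 2-fold lower. Hoxa9, a gene of posterior patterning and of blood progenitors, read 7.90 on the KO DSS array, 7.88 on the WT DSS array, 4.79 in untreated KO and 7.63 in untreated WT (1455626_at). Hoxa10, needed in the uterus, read 5.20, 5.72, 3.06 and 5.18 (1431475_a_at). Hoxa5, which patterns the mesenchyme of lung and gut, read 6.19, 5.95, 4.49 and 6.29 (1448926_at). At each of these the other 3 arrays lay close together and the untreated KO array lay below them, with KO minus WT differences of -2.84, -2.12 and -1.80. The second probe sets differed from them. That of Hoxa9 (1421579_at) read 5.71, 6.03, 5.43 and 5.64, that of Hoxa5 (1443803_x_at) 4.85, 4.61, 4.73 and 4.66, and that of Hoxa10 (1446408_at) lay at or near background, between 1.00 and 1.44. Hoxa11, of forearm, kidney and uterus, read 5.38, 4.98, 4.79 and 4.27, with the untreated WT array lowest. Hoxa7 read 5.11, 5.96, 5.18 and 5.15, and the Hoxa3 probe sets, of a gene that acts in thymus and parathyroid, read 4.17, 4.14, 4.41 and 4.44 (1452421_at) and 3.47, 3.50, 3.18 and 3.71 (1427433_s_at).

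In cluster c, 0 of 11 probe sets were 2-fold apart in any pair of arrays described. Hoxc9, a thoracic patterning gene, read 3.20 on the KO DSS array, 3.39 on the WT DSS array, 3.82 in untreated KO and 3.41 in untreated WT. Hoxc6, a central member, read 3.02, 2.91, 3.45 and 2.96 at its brightest probe set (1427361_at). The untreated KO array was the highest at both. Without DSS the KO minus WT differences of the 11 probe sets lay between 0 and 0.49, with a median of 0.22.

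Some of the probe sets outside the rule, which match 2 Hox genes or antisense transcripts of the clusters, were also at least 2-fold apart between the untreated arrays. The probe set shared by Hoxb8 and Hoxb7 read 1.07 on the KO DSS array, 0.98 on the WT DSS array, 3.35 in untreated KO and 0.93 in untreated WT. Hoxd3os1, an antisense transcript of the middle of cluster d, read 3.51, 2.44, 6.0 and 3.18 (1460056_at), and Hoxa11os, antisense to Hoxa11, read 6.0, 6.58, 4.56 and 6.80 (1452400_a_at). The untreated KO array was the highest at the first 2 and the lowest at Hoxa11os, where the sense gene Hoxa11 differed by 0.52 in the other direction. Hoxb5os read 5.91, 5.01, 6.20 and 6.28. The other probe sets of this kind were within 2-fold between the untreated arrays. Those shared by Hoxd4 and Hoxd3 differed by 0.77 and 0.87, and the dimmer ones of Hoxd3os1 and Hoxa11os by 0.63 and 0.34 as deposited. How far these probe sets separate a gene from its antisense partner was not tested.

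**Figure D2:**
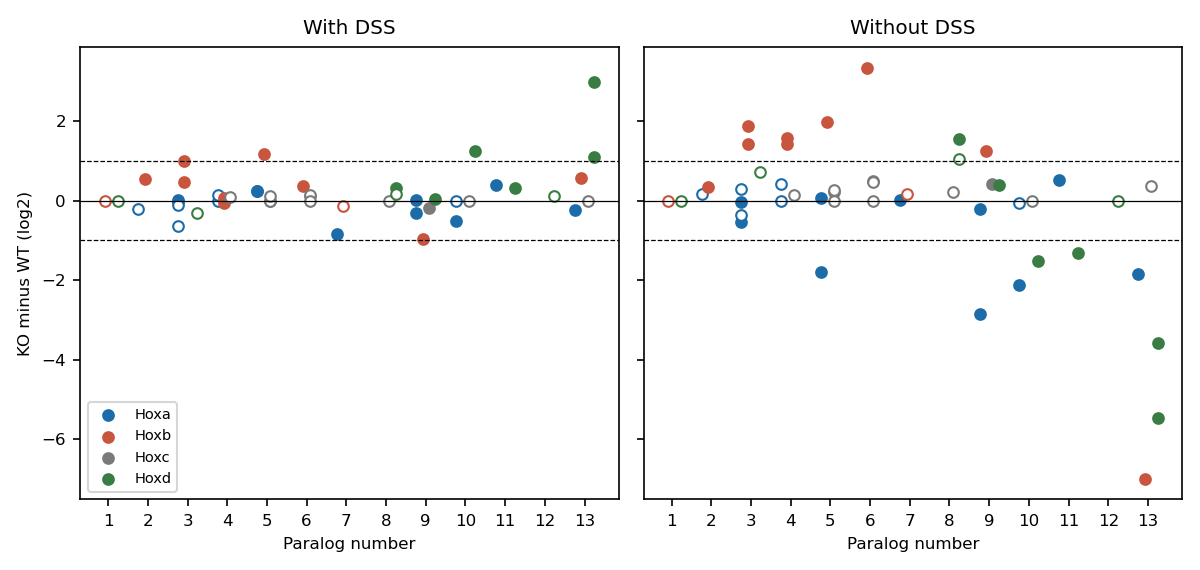
KO minus WT log2 difference (y axis, values under the background limit raised to it) of the 48 Hox probe sets by paralog number (x axis), with DSS on the left and without DSS on the right; colours are clusters, filled circles lie above an array median on at least 1 array, and dashed lines mark 2-fold. With DSS 4 points lie 2-fold above 0 and none 2-fold below, and without DSS the points run from 3.35 at paralog 6 of cluster b to -6.99 at paralog 13.

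As a description, the Spearman correlation of the difference with paralog number over the 48 probe sets was 0.13 with DSS and -0.33 without DSS. Without DSS it was -0.75 over the 10 probe sets of cluster d, -0.30 over the 16 of cluster a and -0.05 over the 11 of cluster b, where the change of sign fell between Hoxb9 and Hoxb13. The points share their arrays, and several share a gene. Over the 26 probe sets above an array median on at least 1 array the correlation was 0.06 with DSS and -0.60 without DSS. This filter uses the same values as the differences. The probe sets of Hoxb4 and Hoxc9 passed it through the untreated KO array alone and that of Hoxd11 through the untreated WT array alone. The value without DSS is therefore not independent of the filter. Over the 11 above the median on all 4 arrays the correlation was -0.47 with DSS and 0.005 without DSS. This stricter filter also uses the same values as the differences. It removed Hoxb13, Hoxa13 and both Hoxd13 probe sets because they fell under the median in untreated KO. Probe sets higher in untreated KO, such as those of Hoxb6 and Hoxb4, were removed as well. The value of 0.005 therefore cannot decide whether the trend without DSS holds among bright probe sets.

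With DSS, KO and WT colons were closer at the Hox clusters. Over the 48 probe sets the median absolute difference was 0.22 between the KO and WT arrays with DSS and 0.505 without DSS, against 0.18 and 0.28 over all probe sets with 1 symbol. At least 2-fold higher in KO were 4 probe sets (8.33%), against 2.31% of all, and 0 were 2-fold lower, against 0.801% of all. They were both Hoxd13 probe sets (2.98 and 1.10), Hoxd10 (1.24) and Hoxb5 (1.18). Among the filtered probe sets the same 4 were higher, against 3.55%, and 0 were lower, against 1.28%. When values under the array median were raised to it, Hoxb5 and Hoxd10 differed by 0.45 and 0.19, and 2 probe sets remained past 2-fold. Hoxb13 differed by 0.56 and Hoxa13 by -0.24, and Hoxb9 by -0.96.

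In WT colon, 5 of 17 posterior probe sets were at least 2-fold lower with DSS, 4 of them in cluster d. At least 2-fold lower with DSS were 7 of the 48 probe sets (14.6%), against 2.93% of all, and 0 were 2-fold higher, against 3.41% of all. Among the filtered probe sets the counts were again 7 and 0, against 4.51% and 5.47%. That of Hoxd11 passed the filter through the untreated WT array alone, so it had to be lower with DSS here. The DSS minus untreated difference was -4.60 and -2.82 at the Hoxd13 probe sets, -3.45 for Hoxd10, -1.88 for Hoxd11 and -1.63 for Hoxb13. Hoxb3 (1456229_at, -1.14) and Hoxb6 (-1.0) lay near the 2-fold line, and Hoxb6 fell short of it with quantile normalization (-0.98) and with values raised to the array median (-0.24). Cluster a had 0 probe sets 2-fold apart in this pair, with differences between -0.34 and 0.81, so the WT difference with DSS was not shared by the posterior genes of that cluster.

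In KO colon, 6 of 17 posterior probe sets were at least 2-fold higher with DSS and 1 was lower, while 0 of 16 anterior ones were higher and 4 lower, and 1 of 15 central ones was higher and 4 lower. At least 2-fold higher with DSS were 7 probe sets (14.6%), against 6.62% of all, and 9 were at least 2-fold lower (18.8%), against 3.92%. In the filtered set these were 7 and 8, against 10.4% and 6.08%. Both Hoxb4 probe sets passed the filter through the untreated KO array alone, so they had to be lower with DSS here. Hoxb13 was higher by 5.92, Hoxd13 by 3.84 and 1.85, Hoxa9 by 3.11, Hoxa10 by 2.14, Hoxa5 by 1.70 and Hoxa13 by 1.32. On the lower side, Hoxb6 differed by -3.97, Hoxb3 by -2.04 and -1.25, Hoxb9 by -1.86, Hoxb5 by -1.64, Hoxb4 by -1.44 and -1.23, and Hoxd8 by -1.41 and -1.05. All of these use the untreated KO array. A further comparison, added after the values were known, took untreated WT colon as the base for KO colon with DSS. In it, 1 probe set (Hoxa11, 1.11) was at least 2-fold higher and 5 were lower. Those were Hoxd10 (-2.21), Hoxd13 (-1.72 and -1.62), Hoxd11 (-1.55) and Hoxb13 (-1.07). These 5 were also the posterior probe sets that were lower with DSS in WT, in a comparison that shares the untreated WT array.

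**Figure D3:**
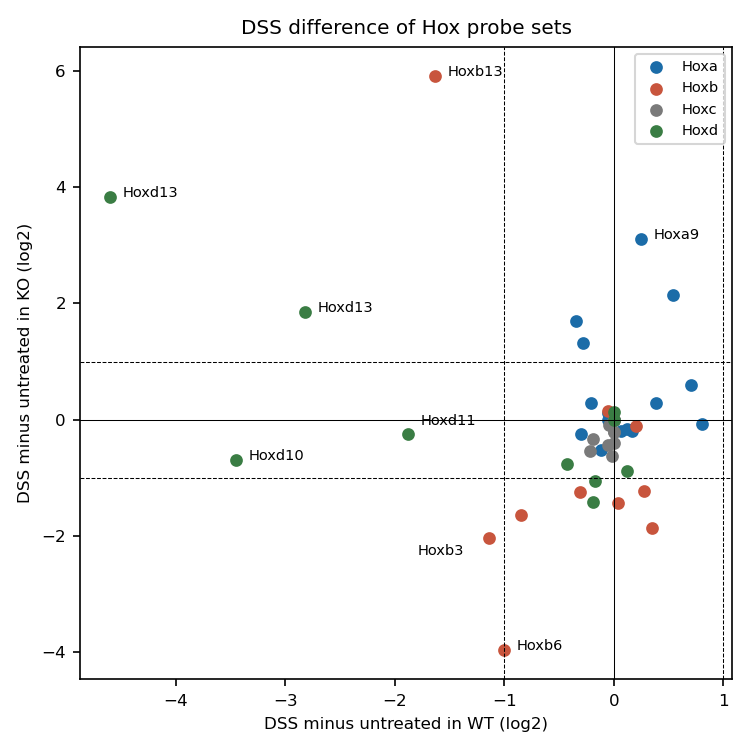
DSS minus untreated log2 difference in KO (y axis) against that in WT (x axis) for the 48 Hox probe sets, coloured by cluster, with dashed lines at 2-fold. Hoxb13 and both Hoxd13 probe sets lie past 2-fold in opposite directions in the 2 genotypes, while Hoxd10 and Hoxd11 are within 2-fold in KO (-0.69 and -0.24) and lower in WT (-3.45 and -1.88).

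Over the 4 arrays, limma with the other factor as covariate called 0 of 26 Hox probe sets for DSS against untreated and 0 of 26 for KO against WT, where 0% of the 24594 probe sets tested passed an adjusted p of 0.05 in each. At an unadjusted p under 0.05 there were 5 Hox probe sets for DSS, against 10.4% of all, and 4 for genotype, against 1.71% of all. The smallest p for DSS was that of Hoxb3 (1456229_at, log2 difference -1.59, SE 0.33, limma adjusted p = 0.395), lower with DSS in both genotypes. Hoxb5 had the smallest p for genotype (log2 difference 1.58, SE 0.33, limma adjusted p = 1.00), higher in KO with and without DSS. Hoxb13 and Hoxd13, which differed in opposite directions, carry that difference as error in this model. The model has 1 residual degree of freedom, and its p-values set the mean difference of a factor against an error. That error comes from how unequal the KO minus WT differences with and without DSS were. It is pooled with that of all probe sets fitted (median prior degrees of freedom 3.11). Neither part measures a spread between replicate mice.

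Genes of Hox partners and regulators were read in the same way. In untreated KO colon, Pbx3 (-1.65) and Meis2 (-1.02) were at least 2-fold lower and 0 were higher among the 8 Hox cofactor genes measured, with a median of -0.105. Of all probe sets with 1 symbol, 4.2% were lower and 2.06% higher. With DSS in KO, Pbx3 (1.75) and Meis2 (1.90) were higher and 0 lower, against 6.62% and 3.92% of all. Meis2 was also higher in KO than in WT with DSS (1.15), against 2.31% of all. Pbx3 read 6.52 on the KO DSS array, 6.07 on the WT DSS array, 4.77 in untreated KO and 6.42 in untreated WT. The untreated KO array alone was low, as at the brighter Hoxa9 probe set (1455626_at). Cdx2, the caudal-type factor of intestinal identity, read 6.19, 7.34, 8.40 and 6.15 with KO minus WT differences of -1.15 with DSS and 2.25 without DSS. The other caudal factor of the gut, Cdx1, read 7.94, 8.59, 8.51 and 8.27. Of the 6 genes of that list, 1 (Cdx2) was 2-fold apart in each genotype comparison. Among all probe sets, 2.06% were higher without DSS and 0.801% lower with DSS. Of 14 measured Polycomb genes, which keep Hox genes silent, 0 were 2-fold apart in any of the 4 pairs, with medians between -0.095 and 0.105. Of 8 genes of Trithorax proteins and H3K27 demethylases, which keep them active, Psip1 alone passed 2-fold in any pair, at 1.22 with DSS in KO.

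Genes next to the clusters were also read. Of the 3 protein-coding genes on each side of every cluster, 22 were measured. In untreated KO colon 0 were at least 2-fold higher, against 2.06% of all probe sets with 1 symbol, and 1 lower, against 4.2%. The median was 0.06. The lower gene was Lnpk, which lies past Evx2 from Hoxd13. It read 6.10 on the KO DSS array, 5.98 on the WT DSS array, 3.97 in untreated KO and 6.02 in untreated WT. Evx2, between Lnpk and Hoxd13, stayed between 2.44 and 2.87. Evx1, beside Hoxa13, read 3.83, 4.01, 2.82 and 2.83, higher with DSS by 1.01 in KO and 1.18 in WT. With DSS in KO, 4 of the 22 were at least 2-fold higher and 0 lower, against 6.62% and 3.92% of all. They were Lnpk (2.13), Snx10 (1.37), Skap2 (1.03) and Evx1. With DSS in WT, 2 were higher and 0 lower, Evx1 and Cbx5 (1.02), against 3.41% and 2.93% of all. Snx10 and Skap2 lie beyond the anterior end of cluster a and Cbx5 beyond that of cluster c. Between KO and WT with DSS 0 of 22 were 2-fold apart, against 2.31% higher and 0.801% lower among all.

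**Figure D4:**
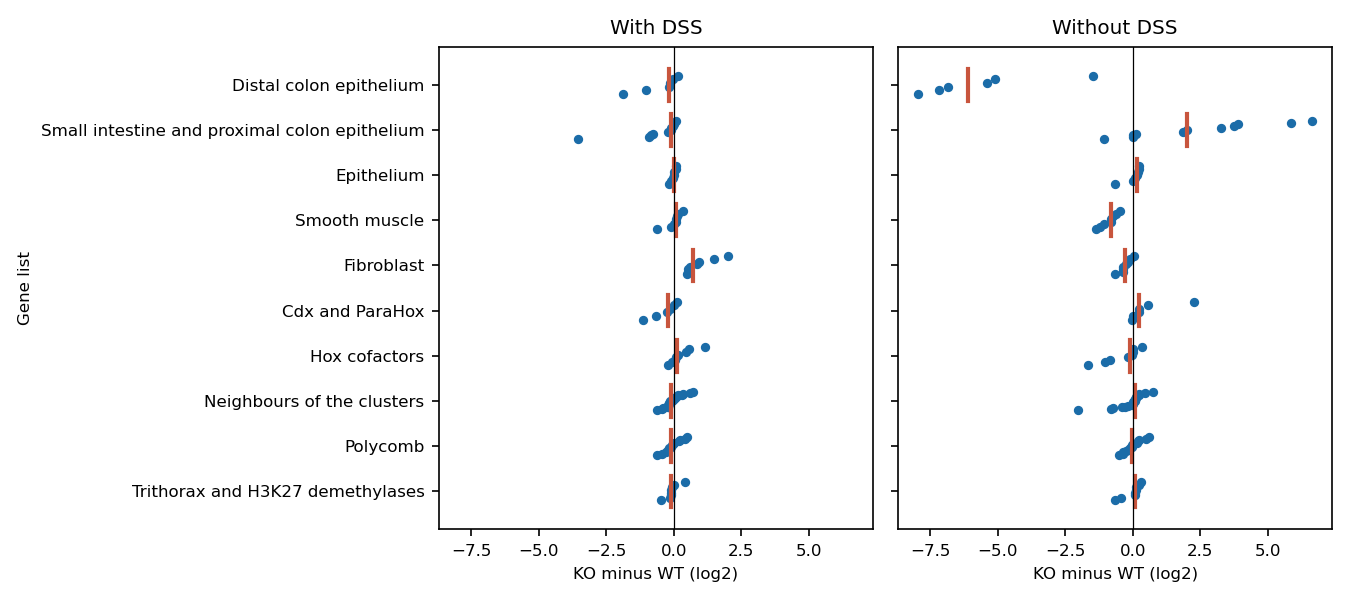
KO minus WT log2 differences (x axis, same scale in both panels) of the genes of 10 lists (y axis), with DSS on the left and without DSS on the right; blue points are genes and red bars list medians. Without DSS the list medians were -6.13 for distal colon and 2.02 for small intestine and proximal colon markers. In the latter list Lct, Apoa1 and Apoa4 lie at or near 0 and Rbp2 lies below it. Several genes of both lists were chosen with their differences in these arrays known. General epithelial markers lie near 0 in both panels.

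Markers of gut position moved with the Hox differences of the untreated KO array. The 6 distal colon markers had a summed log2 level of 53.1 on the KO DSS array, 56.3 on the WT DSS array, 30.1 in untreated KO and 64.1 in untreated WT. All 6 were at least 2-fold lower in untreated KO colon, Sval1 (-7.96), Mptx1 (-7.18), Atp12a (-6.85), Tgm3 (-5.40), Insl5 (-5.12) and Retnlb (-1.47), with a median of -6.13. Of 11 measured small intestine and proximal colon markers, 7 were at least 2-fold higher and 1 lower (Rbp2, -1.07), with a median of 2.02. Among the higher ones were Cyp2c55 (6.64), Slc51a (5.86), Fabp2 (3.90), Alpi (3.75) and Slc10a2 (at least 3.25). The summed levels of the 11 markers were 32.1, 39.1, 65.5 and 38.9 on the same arrays. Lct, a defining small intestine gene, was at background on all 4. Apoa1 and Apoa4, under the array median on all 4, differed by 0.10 and 0 between the untreated arrays. Several genes of both lists were chosen with their differences in these arrays known, so their direction is not independent evidence. The 7 general epithelial markers differed by 0.15 in the median and 0 of them were 2-fold apart. The labelled colon tissue was bright in them, with Cdh17 between 10.08 and 10.12.

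Stromal markers differed as well. Of 8 smooth muscle markers, 0 were higher and 3 lower (Actg2, Cnn1 and Tagln) in untreated KO colon, with a median of -0.825 and summed levels of 66.9 against 74.0 in WT. In WT colon with DSS, where Hoxd13, Hoxd10 and Hoxd11 were low, the summed level was 69.3, with 0 of 8 markers 2-fold apart from untreated WT and a median of -0.55. The 5 mesothelial markers summed to 21.5 on the KO DSS array, 15.7 on the WT DSS array, 16.7 in untreated KO and 19.2 in untreated WT. These sums were lower on the arrays where Hoxd13 was low. Between the untreated arrays 0 of 5 were 2-fold apart, and Krt7 read 8.03 in KO against 7.85 in WT. Lrrn4 and Wt1 were under the array median on all 4 arrays. In WT, 2 of 5 were at least 2-fold lower with DSS (Msln and Lrrn4). With DSS, 3 of the 5 were at least 2-fold higher in KO than in WT, Msln (1.85), Krt7 (1.27) and Upk3b (1.10), and Wt1 was higher with DSS in KO (1.15). The 8 fibroblast markers had a median KO minus WT difference of 0.725 with DSS, where Dcn and Lum were 2-fold higher, and of -0.295 without DSS. Pdgfra (1.41), Dcn (1.39) and Col1a1 (1.02) were 2-fold higher with DSS in KO. The 6 endothelial markers had 0 members 2-fold apart in any pair, and of the 7 measured markers of neurons and glia 0 were higher and 1 lower (Uchl1, -1.14) in untreated KO colon. With DSS in KO, 3 of these 7 were higher, Uchl1 (2.11), Tubb3 (1.30) and Gfap (1.12).

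Besides the mesothelial sum, single markers of other cells divided the arrays as Hoxd13 did, and were picked out for that. The B cell genes Ms4a1 and Cd79a read 7.29 and 6.81 on the KO DSS array, 4.72 and 4.60 on the WT DSS array, 4.10 and 4.37 in untreated KO, and 6.66 and 5.87 in untreated WT. Both were low on the WT DSS and untreated KO arrays, where Hoxd13 was low. Ptprc, a general leukocyte gene, was also lower on those arrays, with 8.85, 7.36, 7.61 and 8.24 in the same order of arrays. Cd3e and Adgre1 did not follow them. Cd3e read 4.53, 4.75, 5.33 and 4.92 and Adgre1 4.34, 4.02, 5.29 and 4.75 on the same arrays, both highest in untreated KO. Over the 8 leukocyte markers, 4 were at least 2-fold higher and 0 lower in KO colon with DSS (median 1.24; S100a9 3.43, Ms4a1 2.57, Cd79a 2.21 and Ptprc 1.49), and 0 were higher and 2 lower without DSS (median -0.075). Csf3r was higher with DSS in KO (1.28). The summed leukocyte levels were 47.3 on the KO DSS array, 35.7 on the WT DSS array, 34.4 in untreated KO and 37.5 in untreated WT. Adipoq, a fat cell gene, read 2.14, 5.01, 4.54 and 2.50, high where Hoxd13 was low. Fabp4 did not follow it, with 6.90, 6.64, 6.37 and 6.12, and Pparg was highest in untreated KO (6.01, 6.73, 7.72 and 6.18). The 4 measured adipocyte markers summed to 15.98, 19.44, 19.96 and 15.81, with Lep at background on all 4. The 7 measured markers of stratified squamous epithelium, as found at the anal margin, were under the array median on all 4 arrays and 0 were 2-fold apart in any pair. The part of these markers in the Hox differences was not tested, and position along the colon and genotype cannot be told apart with 1 mouse per group.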

How the data were processed

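Biotin-labelled RNA of 4 distal colons was hybridised to Affymetrix arrays, per the labels' protocols. The authors deposited 1 log value per probe set and array, from 0.16 to 13.23, and the deposited values were taken as log2, since as natural logs they would reach 556821, more than a 16-bit scanner can record (65535). Summarization and normalization are not given in the sources used here. Symbols came from the platform annotation, updated by gene number through RefSeq (GRCm38.p6), which matched all 48 member probe sets. RefSeq coordinates were used for gene order and promoters only.

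Values at or under 1.39 were raised to it, and calls are log2 differences of at least 2-fold, with no test within a pair of arrays. Summed levels use the values as deposited. Limma 3.58.1 in R 4.3.3 (lmFit, eBayes with trend, two-sided, Benjamini-Hochberg) was fitted on the 24594 non-control probe sets above the array median on at least 1 array. Python 3.11.15 with numpy 2.4.6, pandas 2.3.3, scipy 1.17.1 and matplotlib 3.10.9 was used. The code was tested on simulated data. Members with a probe set above an array median were named with their values, and the others were given by range. List genes and cluster neighbours were named where 2-fold apart in a pair, at most 6 a list. Cdx1, Evx2, Cdh17, Lct, Apoa1, Apoa4, Lep, Fabp4, Cd3e and Adgre1 were added after their values were seen. So were the dim members Hoxc6, Hoxc13, Hoxd3, Hoxd12 and Hoxb7. In the lists, a gene of several probe sets was represented by the brightest. For counts of list genes, the shares of all probe sets with 1 symbol are those given for the same pair. Members and lists were chosen with earlier results of these data known. Alternatives were other normalizations, filters, floors, probe set rules and thresholds, and leaving out each array.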

Additional observations from a re-analysis of the deposited data

Results flagged for a closer look

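For 4 probe sets of 3 genes a difference of at least 2-fold had opposite directions in the groups compared. This was not tested, since each group has 1 array. Hoxb13 was higher by 5.92 with DSS in KO colon and lower in WT colon (-1.63), so that the DSS differences were 7.55 apart on the log2 scale. The Hoxd13 probe sets were higher with DSS in KO (3.84 and 1.85) and lower with DSS in WT (-4.60 and -2.82), 8.44 and 4.67 apart. At both, KO was also above WT with DSS and below it without DSS. Hoxd10 was higher in KO than in WT with DSS (1.24) and lower without DSS (-1.52), 2.76 apart.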

How the results depend on the processing

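Of 100 counts under another setting, 92 stayed within 1.5 times the reported one and 8 did not. With the filter at the 75th percentile, which left 14 Hox probe sets, 5 in place of 9 were higher in untreated KO colon and 5 in place of 9 lower with DSS in KO. With values raised to the array median, 2 in place of 4 were higher in KO with DSS. With the mean over the probe sets of a gene, 4 in place of 7 were higher with DSS in KO. With a 1.5-fold threshold, 3 in place of 0 were lower in KO with DSS and 2 in place of 0 higher with DSS in WT. With the untreated WT array as the reference of the KO DSS array, an alternative chosen after seeing the data, 1 in place of 7 was higher and 5 in place of 9 lower. Limma called 0 Hox probe sets under every setting, including each array left out, where 0 to 12 for DSS (12 without the untreated WT array) and 0 to 13 for genotype (13 without the KO DSS array) had an unadjusted p under 0.05. With quantile normalization it called 1 and 2 probe sets among all, none of them Hox. Of 416 differences of the 26 named probe sets under another scaling or floor, 404 kept their side of 2-fold and 12 did not, and 0 of those past 2-fold changed sign. Of these 12, 10 came with values raised to the array median, all at probe sets with a value under that median, and 2 were Hoxb6 with DSS in WT. Of 84 medians, 5 crossed 2-fold, each with the filter on dim probe sets. No paired analysis was possible because each group has 1 array. Signal over background limits the 22 Hox probe sets under the array median on all arrays, of which 6 were at background throughout.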

Other observations

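Other transcription factor genes of gut position differed in the untreated KO colon together with the Hox genes. Of 16 measured, 3 were at least 2-fold higher, Osr2 (at least 6.28), Isx (5.66) and Tbx3 (2.51), and Hand2 (-1.23) was lower. Osr2, a zinc finger factor of mesenchyme, read 1.65 on the KO DSS array, 1.23 on the WT DSS array, 7.67 in untreated KO and 1.16 in untreated WT. Tbx3, a T-box factor, read 3.07, 2.66, 5.46 and 2.95, so that both were high on the untreated KO array alone. Hand2, which acts in enteric neurons and smooth muscle, read 6.60, 5.63, 4.45 and 5.68. Foxf1, a factor of gut mesenchyme, was higher with DSS in KO (1.15).

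Retinoic acid, made by the Aldh1a enzymes, is a known regulator of anterior Hox genes. Of 14 measured genes of that pathway, 3 were at least 2-fold higher in untreated KO colon and 0 lower, against 2.06% and 4.2% of all. They were Aldh1a1 (3.24), Rara (1.17) and Cyp26a1 (1.03). Aldh1a1 read 5.94 on the KO DSS array, 6.60 on the WT DSS array, 9.86 in untreated KO and 6.62 in untreated WT. With DSS, Aldh1a3 (2.29), Aldh1a2 (1.35) and Rdh10 (1.19) were higher in KO than in WT colon and 0 lower, against 2.31% and 0.801% of all. Whether retinoic acid has a part in the Hox differences was not tested. Position along the colon and genotype cannot be told apart here.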
